A study of Mus musculus with 11 samples.

Results

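Complexes II to V of the mitochondrial respiratory chain were followed through 47 genes encoded in the nucleus, measured on Affymetrix mouse arrays in total RNA from mouse hearts. The genes were taken by symbol: Sdha to Sdhd for complex II, Cyc1 and all symbols starting with Uqcr for complex III, all symbols starting with Cox4 to Cox8 for complex IV, and all starting with Atp5 for complex V. This gave 4 genes of complex II, 9 of complex III, 17 of complex IV and 17 of complex V, out of 18194 genes on the array that had a probe set with a single gene symbol. The 47 genes had 92 such probe sets, and the probe set brightest on average over the 11 arrays stood for the gene. Of the 47 genes, 45 passed a filter on low values (over an array's 40th percentile, on 2 or more arrays), and Cox4i2 and Cox7b2 did not. Cox7b and the subunits encoded in mitochondrial DNA are not analysed here.

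The 4 groups came from C57BL/6 mice. The 3 adult and 3 newborn arrays labelled transgenic came from mice with an Hmgn5 cDNA transgene carrying a FLAG tag, placed behind a floxed LacZ cassette under the CAG promoter. The cassette was removed in the heart by alphaMHC-cre, a recombinase driven by a promoter of heart muscle cells. HMGN5 is a protein that binds nucleosomes and opens chromatin. The 3 adult and 2 newborn control arrays are labelled wild-type, and the labels do not say whether the controls carried the LacZ cassette or the cre. The RNA came from the left ventricle, and the labels call the arrays biological replicates, without giving an age in days or the number of animals behind an array.

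The respiratory chain passes electrons from succinate (complex II) and from reduced ubiquinone (complex III) through cytochrome c to oxygen (complex IV), and complex V uses the proton gradient so formed to make ATP. Heart muscle is among the tissues richest in these complexes. Several complex IV subunits exist in a ubiquitous form and a form found mainly in heart and skeletal muscle, Cox6a1 and Cox6a2, Cox7a2 and Cox7a1, and Cox8a and Cox8b, and the muscle forms are known to replace the ubiquitous ones in the heart after birth.

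Values are on the log2 scale, where a difference of 1 is a doubling of signal. The Hmgn5 probe set read 8.29, 8.26 and 8.71 on the adult arrays labelled transgenic and 8.44, 8.77 and 8.52 on the adult control arrays. In newborns it read 8.56, 8.84 and 8.69 under the transgenic label and 8.85 and 8.81 in controls. The targeted gene was therefore not higher under the transgenic label at either age on this probe set. Whether the probe set covers sequence that the transgene carries is not given in the sources used here, so the groups are named by their labels throughout. Array medians lay between 5.12 and 5.18. Replicate 3 of both adult groups had a high 18S ribosomal RNA control signal, 12.18 and 11.89, against 7.64 to 8.58 on the other adult arrays and 10.05 to 10.53 on the newborn arrays. The 8 ventricular muscle markers were all measured, with a log2 summed signal of 16.72 to 16.91 over the adult arrays and 16.77 to 16.82 over the newborn arrays.

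Most of the 47 genes gave some of the brightest signals on the array. Their mean over the 11 arrays was at least 12 for 39 genes, with the array maxima between 14.21 and 14.37. The 5 genes with a mean under 8 were Cox4i2, the form of subunit 4 known from lung, Cox6b2, Cox7b2 and Cox8c, which are forms known from testis, and Cox7c. Signals of different probe sets depend on the probes, so the order of genes by signal is not an order by RNA. The differences between isoforms given further on are read only for how they change between groups. The median standard deviation of the 47 genes within a group was 0.14 among adult arrays and 0.05 among newborn arrays. In bulk tissue, fewer cells of a type and less RNA per cell cannot be told apart.

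**Figure D1:**
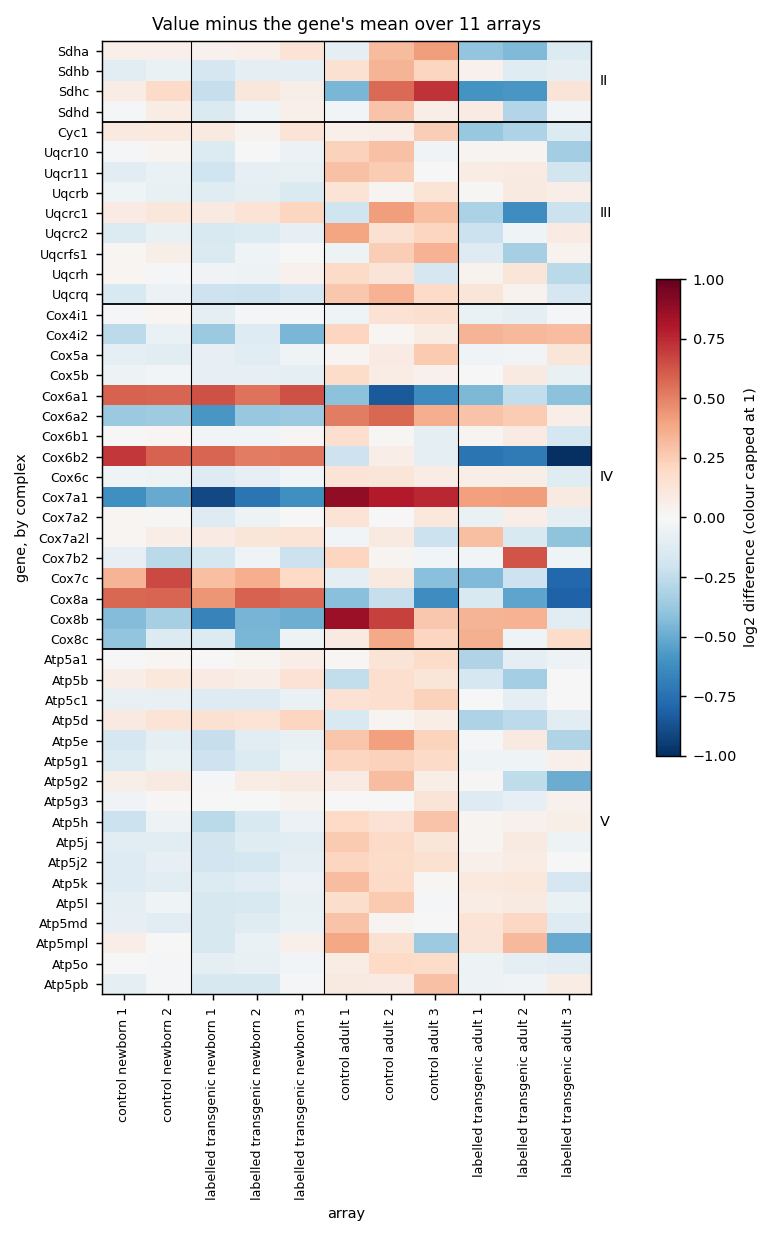
Each row is 1 of the 47 genes, ordered by complex (II to V, right margin), and each column 1 of the 11 arrays; colour gives the log2 value minus the gene's mean over all arrays, capped at 1 in either direction. Cox6a1, Cox8a, Cox6b2 and Cox7c are red in the 5 newborn columns and Cox7a1, Cox6a2 and Cox8b are blue there, while most rows of complexes II, III and V are reddest in the control adult columns.

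The first comparison asked how the complexes differ between newborn and adult hearts. The muscle isoforms of complex IV were higher in adults and the ubiquitous forms Cox6a1 and Cox8a were lower, under both labels. In control hearts Cox7a1 was 2.58-fold higher in adults, Cox8b 1.98-fold and Cox6a2 1.80-fold, while Cox6a1 was 2.32-fold lower and Cox8a 2.00-fold lower. Apart from these and a few low-signal genes, most subunits moved little with age on the probe sets used. The median over all 47 genes was 0.16 in controls against 0.09 over all genes. Other probe sets of some genes moved more in controls, by 1.91 and 1.24 for Uqcr10, 0.92 for Sdha and 0.49 for Sdhd. Weak ones moved by 2.16 for Atp5g1 and −0.46 for Atp5g2. Of 29 genes with several probe sets, 26 had the same sign on all of them in controls. Under the transgenic label 13 did and 16 had mixed signs, so there the direction with age often depended on the probe set.

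In control hearts 12 of the 47 genes (25.5%) rose from newborn to adult and 4 (8.51%) fell at limma's adjusted p under 0.05, where 14.9% of all genes rose and 18.1% fell. Under the transgenic label 4 of the 47 (8.51%) rose and 8 (17%) fell, where 19.7% of all genes rose and 19.7% fell, so these shares lie at or below those of all genes. Of the 16 genes called in control hearts and the 12 called under the transgenic label, 7 were called in both, and all 7 belong to complex IV: Cox7a1, Cox6a2 and Cox8b, which rose, and Cox6a1, Cox8a, Cox6b2 and Cox7c, which fell. How many of all genes were called in both was not counted, so the 7 are a description. The used Cox7c probe set gave a weak signal, probe annotations can be old, and whether it measures the RNA of this subunit was not tested. Without the adult arrays with a high 18S signal, 18 (38.3%) and 14 (29.8%) of the 47 genes were called, where 45.4% and 50.9% of all genes were. The adult arrays then left had 18S signals of 7.64 to 8.58, and the newborn arrays 10.05 to 10.53. In that fit age cannot be told apart from the 18S difference.

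Promoter sequence was compared for the isoforms that parted with age. RefSeq windows from 250 bases before to 50 bases after a gene's start (assembly GRCm38.p6) were at hand for 35 of the 47 genes, among them Cox6a1, Cox7a1, Cox7a2, Cox8a and Cox8b. Both strands were searched for the letters of binding motifs known from respiratory genes: NRF1 (GCGCA, any base, then GCGC), GABP (CCGGAAG), the estrogen-related receptor element (TNAAGGTCA), YY1 (AANATGGCG), MEF2 (YTAWWWWTAR), and the E-box (CANNTG). In these letters N is any base, Y is C or T, W is A or T, and R is A or G. Stretches that fit several motifs counted under each of them. The lines below show every NRF1 match before the start of Cox6a1 and Sdha, the GABP match nearest the start of Cox6a1 and Cox8a, and the E-box before the start of Cox7a1 and Cox8b. They are written 5′ to 3′ on the gene's own strand with the matched letters in capitals.
Cox6a1, NRF1, chr5:115349102-115349129, minus strand: aggaacgggGCGCATGCGCgctctcgct
Cox6a1, NRF1, chr5:115349057-115349084, minus strand: ggataaagtGCGCAGGCGCtggagttcc
Cox6a1, GABP, chr5:115348957-115348984, minus strand: cccatttccgCTTCCGGcgcgccggtgt
Cox8a, GABP, chr19:7217604-7217631, minus strand: ttccgaaataCTTCCGGctcgggcgtcc
Sdha, NRF1, chr13:74350320-74350347, minus strand: gtttacaggGCGCAGGCGCaccaccact
Sdha, NRF1, chr13:74350277-74350304, minus strand: gggcgtgttGCGCAGGCGCagaatcttc
Sdha, NRF1, chr13:74350232-74350259, minus strand: cgactcggtGCGCAAGCGCagtctgtcg
Cox7a1, E-box, chr7:30184036-30184063, plus strand: tggggtcaaccCAAATGcggaaacgatg
Cox8b, E-box, chr7:140900449-140900476, minus strand: gtgacaggagaCAGCTGcagctctccac
The ubiquitous Cox6a1 held the NRF1 letters 162 to 153 and 117 to 108 bases before its start, and the GABP letters 16 to 10 bases before it, on the opposite strand. The windows of the muscle forms Cox7a1 and Cox8b held none of the NRF1, GABP, estrogen-related receptor, YY1 or MEF2 letters, and neither did that of Cox7a2. Their E-boxes lie 124 to 119 and 19 to 14 bases before the start, but an E-box stood in 68.6% of the 35 genes and in 72.3% of all 32851 windows.

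The 35 genes had 38 windows, and a gene counted when any of its windows matched, while the shares over all windows are per window. Over the 35 genes the NRF1 letters were found in 10 (28.6%), against 4.6% of all windows, and the GABP letters in 13 (37.1%), against 8.86%. By window they were found in 10 and 13 of the 38. Either of them stood in 19 genes (54.3%), against 12.6% of all windows, and both in 4. The estrogen-related receptor element was found in 2 genes, Atp5g3 and Sdhd (5.71%, against 1.28%), YY1 in 3 (8.57%, against 2.38%), and MEF2 in 0 (against 3.19%). A match describes these letters and is neither a binding site nor a cause, and no match says only that the letters are not in this window.

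Cox7a1, the muscle form of subunit 7a, read 11.92 and 12.03 in control newborns and 13.41, 13.32 and 13.28 in control adults. Under the transgenic label it read 11.63, 11.80 and 11.91 in newborns and 12.94, 12.94 and 12.62 in adults. Every adult array was above every newborn array. Within a label, adult arrays lay above newborn arrays without overlap for 35.1% of all genes in controls and 30% under the transgenic label. They lay below for 28.5% and 24.7%, so a lack of overlap with age, here and for the genes below, is common on these arrays. The difference between ages was 1.37 in controls (SE 0.14, limma adjusted p = 3.88e-05) and 1.05 under the transgenic label (SE 0.12, limma adjusted p = 9.73e-05). Cox7a2, the ubiquitous form, read 13.42 and 13.41 in control newborns and 13.53, 13.40 and 13.50 in control adults, so its adult arrays fell on both sides of the newborn ones.

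Cox6a1, the ubiquitous form of subunit 6a, read 13.71 and 13.71 in control newborns and 12.71, 12.28 and 12.50 in control adults. It read 13.76, 13.66 and 13.76 in newborns and 12.67, 12.88 and 12.71 in adults under the transgenic label. All adult arrays were below all newborn arrays, with differences of −1.22 (SE 0.14, limma adjusted p = 8.15e-05) and −0.97 (SE 0.12, limma adjusted p = 0.000155). Its muscle partner Cox6a2 moved the other way, from 12.99 and 13.01 to 13.87, 13.94 and 13.73 in controls. Under the transgenic label Cox6a2 went from 12.78, 12.98 and 13.00 to 13.65, 13.62 and 13.43. The adult arrays of Cox6a2 were above the newborn arrays without overlap under both labels.

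Cox8b, the muscle form of subunit 8, read 12.54 and 12.64 in control newborns and 13.82, 13.66 and 13.25 in control adults. Under the transgenic label the values were 12.31, 12.51 and 12.49 in newborns and 13.31, 13.32 and 12.87 in adults. Its ubiquitous partner Cox8a went from 12.46 and 12.47 to 11.47, 11.66 and 11.26 in controls, and from 12.32, 12.48 and 12.45 to 11.74, 11.36 and 11.07 under the transgenic label. Newborn and adult arrays did not overlap for either gene. The difference between ages was 0.99 for Cox8b (SE 0.19, limma adjusted p = 0.00246) and −0.999 for Cox8a (SE 0.18, limma adjusted p = 0.00187) in controls. Under the transgenic label a second Cox8a probe set, with a mean of 11.85, gave −0.90. A weak one, with a mean of 4.11, disagreed in sign (0.13).

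**Figure D2:**
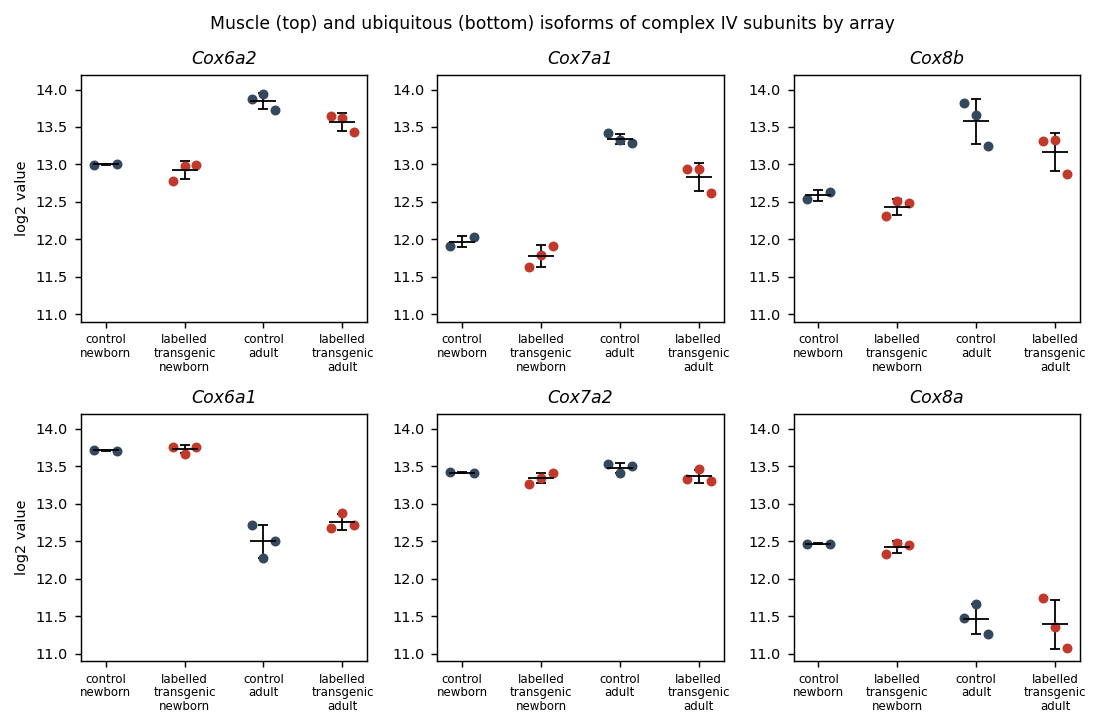
Each panel is 1 gene, with the muscle form above and its ubiquitous partner below; the vertical axis is the log2 value, points are single arrays, and the bars are group means with SD over 2 or 3 arrays. Cox6a2, Cox7a1 and Cox8b lie higher in adults, Cox6a1 and Cox8a lower, and Cox7a2 stays between 13.27 and 13.53 in all groups.

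The muscle and ubiquitous forms can be set against each other within each array, since this removes the array's overall level. The Cox6a2 minus Cox6a1 difference ran from −0.98 to −0.68 on the newborn arrays and from 0.72 to 1.66 on the adult arrays. The mean change with age was 1.84 for Cox6a, 1.17 for Cox7a and 1.87 for Cox8. Each had p = 0.005 by an exact 2-sided permutation test within labels, the smallest that the 200 arrangements can give, and 0.01 after Benjamini-Hochberg adjustment over the 8 isoform tests. For Cox4i2 minus Cox4i1 the change was 0.43 (exact permutation p = 0.025, adjusted 0.0333), with Cox4i2 read below 5 on every array. Without the adult arrays with a high 18S signal the changes were 1.89, 1.23 and 1.90, each at exact permutation p = 0.0167, the smallest that 60 arrangements can give. The adult arrays then left all had a lower 18S signal than the newborn arrays, and age cannot be told apart from that difference.

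The testis form Cox6b2 gave a weak signal and fell with age, from 6.73 and 6.62 to 5.82, 6.10 and 5.93 in controls and from 6.61, 6.54 and 6.55 to 5.30, 5.32 and 4.79 under the transgenic label. The adult arrays were lower without overlap. All 3 adult readings under the transgenic label lay below the 40th percentile of their arrays (5.62, 5.55 and 5.38), so no fold change is given for them. Its ubiquitous partner Cox6b1 read 13.52 to 13.86 on all 11 arrays, with differences of 0.02 and −0.01. Cox7c, a small subunit with no muscle form, fell by 0.64 and 0.76, on a probe set that read between 6.00 and 7.44. Its probe sets gave mixed signs in the adult comparison of the labels, described further on. Cox8c, another testis form, rose in controls by 0.50 (SE 0.17, limma adjusted p = 0.0428), a call kept in 12 of 21 alternative fits. Cox4i2, which had not passed the filter on low values (mean 4.53), rose by 0.64 under the transgenic label (SE 0.12, limma adjusted p = 0.0016). Cox7b2 and Cox7a2l passed no age test.

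Outside complex IV the control hearts showed 8 rises with age and 0 falls, where 14.9% of all genes rose and 18.1% fell. All 8 were small on the probe sets used, although a weak second probe set of Atp5g1 rose by 2.16, and they depended on the fit. With the replicate block only Atp5e and Uqcrq were called, and with the compared groups alone only Atp5e. Without either newborn control 0 of the 8 were called. Complex V contributed 5: Atp5e (0.43), a subunit of the central stalk, Atp5g1 (0.31), of the rotating c ring, Atp5h (0.34), Atp5j (0.30) and Atp5j2 (0.29), of the stator and membrane part. Complex III contributed Uqcrq (0.38) and Uqcrc2 (0.36), a core subunit, and complex II contributed Sdhb (0.33), the iron-sulfur subunit. Under the transgenic label none of these 8 was called. The calls outside complex IV were then 4 falls, where 19.7% of all genes fell: Atp5d (−0.39), Cyc1 (−0.36), Uqcrc1 (−0.53) and Sdha (−0.40). For Sdha a second probe set rose by 0.26 in that comparison, so the direction depends on the probe set. The median change with age by complex was 0.15, 0.16, 0.14 and 0.21 for II, III, IV and V in controls and −0.18, −0.02, 0.08 and 0.08 under the transgenic label.

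The count in control hearts depended on single arrays, as did the share over all genes, which was 33% with all arrays. It fell from 16 to 5 without newborn control 1 (15.5% of all genes called), to 6 without newborn control 2 (20.1%) and to 8 without adult control 2 (27.3%). It was 9 without adult control 1 (27.7%) or 3 (32.7%) and without newborn array 2 (28.9%) or 3 (29.3%) under the transgenic label. Without newborn array 1 under that label it was 10 (29.4%). The 5 isoform genes Cox6a1, Cox6a2, Cox7a1, Cox8a and Cox8b kept their call and direction in all 21 alternatives in both age comparisons. Cell type markers also moved with age: all 8 macrophage markers rose under both labels, with a log2 summed signal of 10.02 to 10.49 in newborns and 11.67 to 12.73 in adults. Of the 8 fibroblast markers 5 fell in controls and 4 under the transgenic label, with summed signals of 14.71 to 15.05 in newborns and 13.52 to 14.80 in adults. Of 4 smooth muscle markers 3 fell in controls (from 13.33 to 13.42 in newborns to 10.64 to 11.52 in adults) and 2 under the transgenic label (from 13.32 to 13.46 to 12.39 to 12.75). Of 5 atrial markers 1 fell in controls and 4 under the transgenic label, with median changes of −1.80 and −4.12 and summed signals of 15.05 to 15.30 in newborns and 12.70 to 14.52 in adults. Of 6 endothelial markers 1 fell and 1 rose in controls and 3 fell under the transgenic label (11.62 to 11.80 in newborns and 11.23 to 11.50 in adults). In the ventricular, adipocyte, erythroid and skeletal muscle lists at most 2 markers changed in either comparison. Their part in the age differences was not tested.

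**Figure D3:**
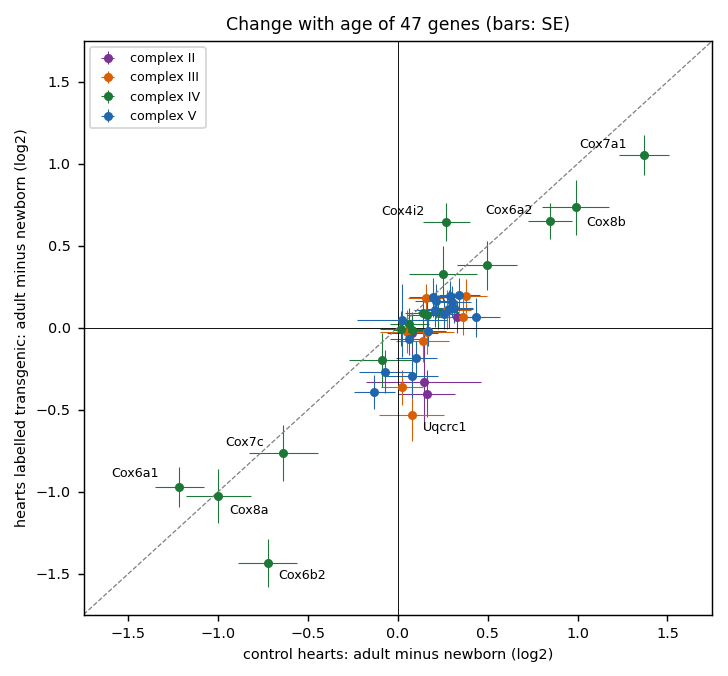
Each point is 1 of the 47 genes, coloured by complex; the horizontal axis is its adult minus newborn difference in control hearts and the vertical axis the same under the transgenic label, both log2, with bars of 1 SE and a dashed line of equal change. Cox7a1 lies at 1.37 and 1.05 and Cox6a1 at −1.22 and −0.97, and most other genes lie within 0.5 of zero and below the dashed line.

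The second comparison asked how the complexes differ between adult hearts labelled transgenic and adult controls. Most subunits read slightly lower under the transgenic label, in all 4 complexes. Complex II had a median difference of −0.41, complex III −0.28, complex V −0.17 and complex IV −0.10. The fall passed the test for Sdha (1.45-fold lower), Cox7a1 (1.42-fold), Cyc1 (1.32-fold) and the weakly detected Cox6b2. No gene of the 47 rose. At limma's adjusted p under 0.05, 4 of 47 (8.51%) fell, where 2.93% of all genes fell and 4.16% rose.

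Of the 47 genes, 44 (93.6%) had a difference below 0, against 49.1% of all genes, and the exceptions were Cox6a1, Cox4i2 and Cox7b2. The median over the 47 genes was −0.18, and over all genes 0.00475. For 20 genes (42.6%) every array labelled transgenic was below every control array, where 7.94% of all genes showed this, and 1 gene, Cox4i2, was above without overlap, where 10% of all genes were. The genes are read on the same arrays and are not independent of each other. The 8 ventricular muscle markers had a median difference of −0.15, close to that of the 47 genes, and 0 of the 8 passed the test. Their summed signal was 16.72 to 16.82 under the transgenic label and 16.82 to 16.91 in controls.

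In complex II, Sdha, the flavoprotein that oxidises succinate, read 11.94, 11.89 and 12.20 under the transgenic label and 12.24, 12.65 and 12.75 in controls. The arrays did not overlap, although the highest array labelled transgenic was just below the lowest control. The difference was −0.54 (SE 0.14, limma adjusted p = 0.0438), and a second Sdha probe set gave −0.70. Sdhb, the iron-sulfur subunit, read 13.29, 13.13 and 13.16 against 13.40, 13.59 and 13.46, again without overlap, a difference of −0.29 that did not pass (limma adjusted p = 0.112). Sdhc, a membrane anchor, had the widest spread, 10.07, 10.09 and 10.80 against 10.21, 11.23 and 11.39, and its groups overlapped.

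In complex III, Cyc1, the cytochrome that hands electrons to cytochrome c, read 12.24, 12.31 and 12.49 under the transgenic label and 12.68, 12.69 and 12.87 in controls. The groups did not overlap, and the difference was −0.40 (SE 0.11, limma adjusted p = 0.0459). Uqcrc1, a core subunit, read 12.12, 11.82 and 12.22 against 12.24, 12.85 and 12.74. Its difference of −0.56 was larger, but its control arrays spread more and it did not pass (limma adjusted p = 0.0673). All 9 genes of complex III had differences below 0, from −0.56 to −0.04, and Uqcrb, a small subunit, had the smallest.

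In complex IV the muscle form Cox7a1 read 12.94, 12.94 and 12.62 under the transgenic label and 13.41, 13.32 and 13.28 in controls. The groups did not overlap and the difference was −0.51 (SE 0.12, limma adjusted p = 0.0309). The weakly detected Cox6b2 read 5.30, 5.32 and 4.79 against 5.82, 6.10 and 5.93, also without overlap (limma adjusted p = 0.00725). Its arrays under the transgenic label were all below the 40th percentile of those arrays, so the size of the fall is not given. The other muscle forms did not pass, with differences of −0.41 for Cox8b (limma adjusted p = 0.197) and −0.28 for Cox6a2 (limma adjusted p = 0.186). The ubiquitous Cox6a1 had a difference of 0.26 (limma adjusted p = 0.268), Cox8a −0.07 and Cox4i1, the common form of subunit 4, −0.14.

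In complex V all 17 genes had differences below 0 on the probe sets used, from −0.40 to −0.03, and 0 of the 17 passed the test. A weak second probe set of Atp5g1 differed by −1.45 and passed in the fit of all probe sets (limma adjusted p = 0.0158). Atp5g1 was also called with the mean of probe sets. Atp5e read 12.62, 12.73 and 12.33 under the transgenic label and 12.91, 13.04 and 12.86 in controls, a difference of −0.38 (limma adjusted p = 0.092). Atp5g2, another gene of the c ring, read 12.25, 11.99 and 11.75 against 12.32, 12.55 and 12.30, a difference of −0.40 (limma adjusted p = 0.111). The groups did not overlap for either gene. The catalytic subunits Atp5a1 and Atp5b differed by −0.26 and −0.18.

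**Figure D4:**
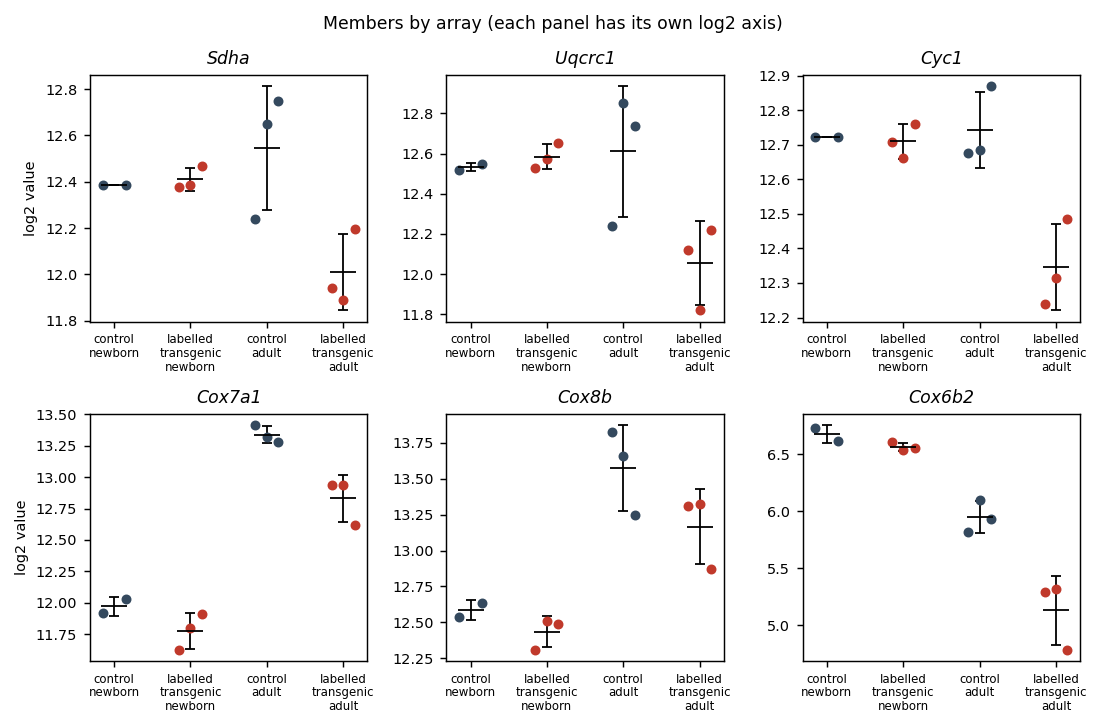
Each panel is 1 gene with its own log2 axis, points are single arrays, and the bars are group means with SD over 2 or 3 arrays. The adult arrays labelled transgenic lie below the adult controls for Sdha, Uqcrc1, Cyc1, Cox7a1 and Cox6b2, and overlap them for Cox8b, while the newborn groups lie close together in every panel.

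How many of the 47 genes passed depended on the fit and on single arrays, while the median did not. A fit of the 6 adult arrays alone called 0 of the 47 genes (7 at an unadjusted p under 0.05) and 373 of all genes (2.05%). The count was 1 without adult control 2 or 3 (1.41% and 2.37% of all genes then fell), without newborn array 2 labelled transgenic (2.06%) or without either newborn control (2.13% each). It was 2 without adult array 2 (2.85%) or newborn array 1 or 3 (2.22% each) labelled transgenic. With an 18S factor, which marked the high-18S adult arrays against all others, 8 genes fell (17%), where 6.45% of all genes did. Without the high-18S arrays 5 fell (10.6%), where 4.59% of all genes did. Cox6b2 was called in 20 of 21 alternatives, Cox7a1 in 13, Sdha in 9 and Cyc1 in 7, and the direction never turned.

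Both replicate 3 arrays stood apart in the same way. Their shift from the mean of replicates 1 and 2, taken gene by gene over the 47 genes, had r = 0.90 between the labels, as a description over genes read on the same arrays. It was below 0 under both labels for 25 genes and above 0 for 15. Cox8b, for example, was 0.45 lower on the replicate 3 array labelled transgenic and 0.50 lower on that of the controls, and Sdha was 0.28 and 0.30 higher. The part of this shift in the differences was not tested beyond the fits with the 18S factor and without both arrays.

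Markers of other cell types differed between the adult groups as well. Of 8 fibroblast markers 2 rose, with a log2 summed signal of 14.44 to 14.80 under the transgenic label and 13.52 to 14.27 in controls. Of 8 macrophage markers 4 rose (12.01 to 12.73 against 11.67 to 12.15) and of 4 smooth muscle markers 2 rose (12.39 to 12.75 against 10.64 to 11.52). Of 5 atrial markers 1, Nppa, rose, and the summed signal was 14.10 to 14.52 against 12.70 to 14.22. The other 4, Myl4, Myl7, Sln and Tbx5, had differences of −1.88, −3.23, −3.97 and −0.25 that did not pass. Of 6 endothelial markers 1 fell (11.23 to 11.45 against 11.43 to 11.50). Of 7 skeletal muscle markers 1 rose, while their summed signal was lower (12.67 to 12.95 against 13.03 to 13.21). None of the 6 adipocyte or 3 erythroid markers measured passed (13.15 to 13.48 against 13.13 to 13.23, and 8.00 to 8.99 against 7.57 to 8.44). No marker is at 0 on this scale, where a gene without signal still gives a value. Their part in the lower readings of the 47 genes was not tested.

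The genes that build and connect the complexes were read alongside the subunits. Of 68 measured genes in 6 lists of assembly factors, electron carriers and mitochondrial structure, 16 fell and 0 rose in adult hearts labelled transgenic, where 2.93% of all genes fell, with a median of −0.23. The list of electron carriers, with the enzymes that make ubiquinone and the proteins that pass electrons to it, held 8 of these among 15 genes and had a median of −0.50. Assembly factors of complexes III, IV and V contributed 2 falls each, of 6, 21 and 5 genes, the structural list 2 of 17, and assembly factors of complex II 0 of 4. These lists were drawn up with results of these arrays known, so the counts are descriptions.

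Pdss2, which makes the side chain of ubiquinone, read 8.29, 8.46 and 8.17 under the transgenic label and 9.04, 9.17 and 9.18 in adult controls. It fell by 0.82 (SE 0.12, limma adjusted p = 0.002) without overlap. Coq10a, a protein that binds ubiquinone, read 9.65, 9.70 and 9.69 against 10.25, 10.87 and 10.75 and fell by 0.94 (SE 0.16, limma adjusted p = 0.00459). Coq9, needed for ubiquinone synthesis, fell by 0.61 (limma adjusted p = 0.00709). The carrier cytochrome c itself, Cycs, differed by −0.10 (limma adjusted p = 0.724). Tmem70, an assembly factor of complex V, fell by 0.65, Ttc19, of complex III, by 0.59, and Lrpprc, which stabilises mitochondrial messenger RNA, by 1.02.

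In newborn hearts the labels gave no call among the 47 genes or among all genes. At limma's adjusted p under 0.05, 0 of 47 genes passed, where 0% of all genes did, with 0 of the 47 and 198 of all genes at an unadjusted p under 0.05. The median difference was −0.03, and 35 genes (74.5%) lay below 0, against 48.6% of all genes. The 3 smallest p-values were those of Cox7a1 (−0.19, 95% interval −0.50 to 0.11), Cox4i2 (−0.15) and Cox7c (−0.22), each at limma adjusted p = 0.999985. For 10 genes (21.3%) the arrays labelled transgenic were all below the controls, where 9.83% of all genes showed this with 3 against 2 arrays. Of the 68 genes of the other lists 0 passed.

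The difference between adults and newborns in the effect of the label was tested as an interaction, in which 0.687% of all genes and 0 of the 47 passed, with 4 of the 47 at an unadjusted p under 0.05. The 4 with the smallest p were Cox6b2 (limma adjusted p = 0.23), Sdha (−0.56), Uqcrc1 (−0.61) and Cyc1 (−0.39). The larger differences between the labels in adults are therefore not shown, for these genes, to differ from those in newborns. With array weights Cox6b2, Sdha and Uqcrc1 passed, 3 of the 47 genes (6.38%), in a fit that called 841 of all genes (4.62%).

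**Figure D5:**
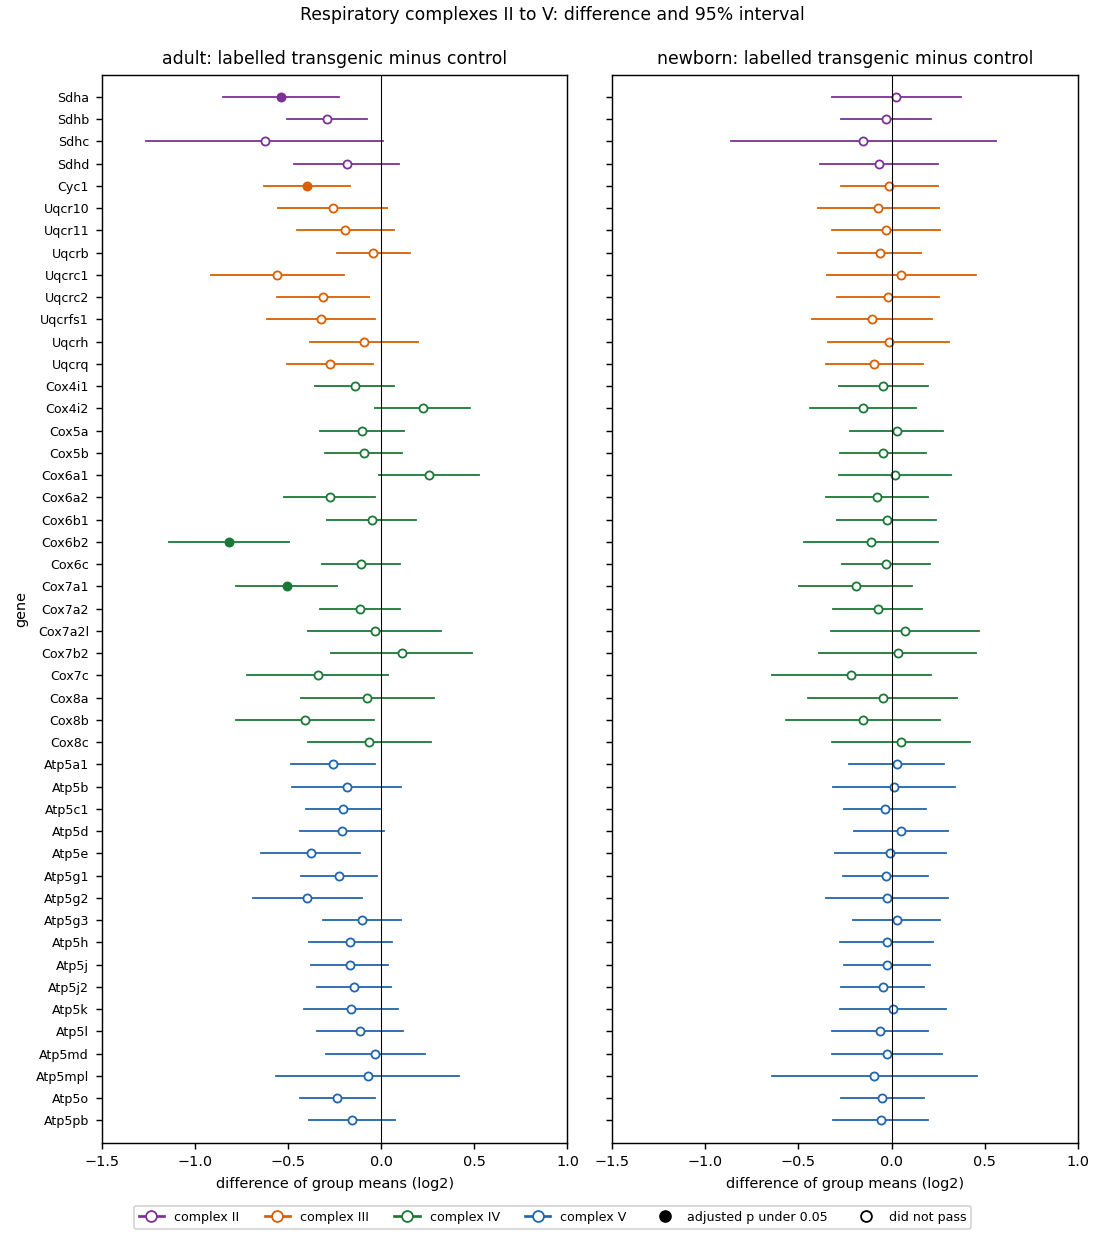
Each row is 1 of the 47 genes in order of complex; the horizontal axis is the difference labelled transgenic minus control (log2) with its 95% interval, for adults on the left and newborns on the right, and filled points passed limma's adjusted p under 0.05. In adults 44 points lie left of zero and 4 are filled; in newborns 35 lie left of zero and none is filled.

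The balance of muscle and ubiquitous forms was compared between labels in the same way as between ages. The Cox8b minus Cox8a difference within arrays was lower under the transgenic label, with a change of −0.22 averaged over both ages (−0.33 in adults and −0.11 in newborns), with exact permutation p = 0.005 and an adjusted value of 0.01. On the arrays it read 1.57, 1.96 and 1.79 in adults labelled transgenic and 2.36, 2.00 and 1.98 in adult controls. For Cox7a1 minus Cox7a2 the change was −0.26 (−0.39 and −0.12; exact permutation p = 0.015, adjusted 0.024) and for Cox6a2 minus Cox6a1 it was −0.32 (−0.53 and −0.10; exact permutation p = 0.035, adjusted 0.04). Cox4i2 minus Cox4i1 changed by 0.13 (exact permutation p = 0.28). In adults the groups did not overlap for Cox6a, Cox7a or Cox8, and the muscle form was lower relative to its partner in all 3 arrays labelled transgenic. These tests rest on few arrays: the Cox6a value had exact permutation p of 0.05 to 0.07 when any 1 of 7 arrays was left out (between −0.33 and −0.24) and 0.117 without the high-18S arrays, and the Cox8 value was −0.16 (exact permutation p = 0.05) without adult control 1. With the replicate block the Cox8 value was −0.21, and limma's unadjusted 0.0862 ended the call. Without the high-18S arrays Cox7a gave −0.24 (exact permutation p = 0.05).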

How the data were processed

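Per the labels' protocols, RNA was cleaned on RNeasy columns, digested with DNase and labelled as biotinylated cRNA. The values deposited by the authors are log2 signals of 45101 probe sets on 11 arrays. The submitters' processing notes list RMA, affy and limma, without versions or roles, and scanner files were not used here. Probe sets took their gene symbols from the platform annotation (34958 with 1 symbol, 932 with several, 9211 with none listed). By gene ID, 34754 matched the RefSeq table and 0 symbols changed.

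All 11 arrays entered 1 model of group means for 18194 genes, fitted by lmFit and eBayes (R 4.3.3 with limma 3.58.1; 7 residual and 3.85 prior degrees of freedom), 2-sided, with Benjamini-Hochberg adjustment over all genes in each of 5 contrasts. The script was tested on simulated data. The groups share 1 estimate of spread although adult arrays varied more. The number of arrays limits the precision, and if an array pools or repeats animals the p-values measure only the spread between these samples.

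Named were all members of the isoform families, in each contrast the called genes with the smallest p, up to 4 per complex and direction (where 0 were called, the 3 with the smallest p), called genes whose probe sets disagree in sign, and up to 3 genes of the other lists per contrast. Genes named beyond this were chosen after their values were seen. The members and lists were chosen with earlier results of these data known. Alternatives were a replicate block, a low-value filter, all probe sets, the mean of probe sets, robust variance with an intensity trend, array weights, the compared groups alone, cyclic loess, an 18S factor, no high-18S arrays, and each array left out. The 18S factor marked replicate 3 of both adult groups against all other arrays and did not use the measured 18S level. For the isoform tests, leaving out the high-18S arrays was chosen after seeing the data.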

Additional observations from a re-analysis of the deposited data

How the results depend on the processing

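In the adult comparison the median over the 47 genes stayed between −0.21 and −0.17 in every alternative. The count of genes called, 4 as reported, was 2 with all probe sets (1.79% of all probe sets fell) and 2 with cyclic loess (3.34% of all genes fell). It was 0 with the compared groups alone (0.643%), 8 with the 18S factor (6.45%) and 1 to 5 without each array in turn (1.41% to 4.21%). The control age comparison, 16 genes as reported, gave 9 with the replicate block (33.1% of all genes called) and 9 with the compared groups alone (29.5%). It gave 5 to 16 without each array (15.5% to 40.8%). The interaction gave 3 with array weights (4.62% of all genes called) and 0 without each array (0.033% to 2.97%). Cox6a2 minus Cox6a1 between labels was −0.28 (exact permutation p = 0.065) with the mean of probe sets, −0.32 (exact permutation p = 0.117) without the high-18S arrays and −0.36 to −0.24 without each array. Cox7a1 minus Cox7a2 was −0.24 (exact permutation p = 0.05) without the high-18S arrays. Cox8b minus Cox8a was −0.21 (0.0862 as limma's unadjusted p) with the replicate block and −0.27 to −0.16 without each array. Cox4i2 minus Cox4i1 with age was 0.30 (exact permutation p = 0.05) with cyclic loess. The cause of these changes was not tested. Whether replicate numbers pair the samples cannot be told from these arrays. Correlations of same-numbered arrays were 0.31, −0.06 and 0.45 in adults and 0.18 and −0.15 in newborns. The adult value of 0.45 is that of the replicate 3 arrays, which both had a high 18S signal. With 2 newborn controls, the deviations from their mean mirror each other, so the newborn values cannot show pairing or its absence. The replicate block changed no other count by over 1.5 times. Over 671 combinations of called gene and alternative, 521 kept the call and direction, 150 lost the call and 0 reversed.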
